A study of Homo sapiens with 18 samples.

Results

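CCN1 and CCN2, 2 secreted matricellular proteins whose genes are standard readouts of the coactivator YAP, were followed with 8 further genes of the YAP programme and of the Hippo pathway that controls it. The older symbols of the pair are CYR61 and CTGF. The 8 others were ANKRD1, AMOTL1, AMOTL2, LATS1, LATS2, AJUBA, YAP1 and WWTR1. These are 10 of the 34287 genes to which the deposited transcripts could be matched, 23942 of which had a count. They were chosen by name, as gene sums of the transcript counts, after the rise of CCN2 with isoproterenol had been seen in these data. The question was whether CCN2 rose alone or together with other YAP genes. Since the choice rested on the response to isoproterenol, the responses of these 10 genes are described with their errors and without p-values, and counts of those called are printed only beside the share of all genes called. Their basal differences between the lines were not the ground of the choice and were tested. These tests share basal libraries with the response to isoproterenol, so they are not independent of the choice.

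The samples were HEK293 cells, a human embryonic kidney line, of 3 genotypes: wildtype, βarrestin1/2 knock out (β-arrestin1/2 KO, lacking both β-arrestins) and Gαs knock out (Gαs KO, lacking the α subunit of the stimulatory G protein). Both KO lines were made from HEK293 by CRISPR–Cas9, and whether each is a single clone is not given in the sources used here. All cells, controls included, carried a transfected β2-adrenergic receptor (β2AR) plasmid and were serum starved overnight. At 48 h after transfection they received vehicle (basal) or 1 μM isoproterenol, an agonist of β-adrenergic receptors, for 1 h. Poly(A) RNA was sequenced from 3 biological replicates of each of the 6 groups, 18 libraries in all.

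Hippo signalling is a kinase cascade that ends on YAP (gene YAP1) and its paralog TAZ (gene WWTR1). The kinases LATS1 and LATS2 phosphorylate both coactivators and keep them out of the nucleus, and angiomotin family proteins such as AMOTL1 and AMOTL2 bind and retain them. AJUBA, a LIM-domain scaffold, binds LATS kinases and restrains them. Nuclear YAP and TAZ bind TEAD transcription factors and raise CCN1, CCN2 and ANKRD1, and they also raise their own inhibitors LATS2 and AMOTL2. Activated β2AR couples through Gαs to cyclic AMP and protein kinase A, whose nuclear targets include CREB, and it also recruits β-arrestins.

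The libraries held 17908597 to 25019834 counts, with a median of 20419460. Levels are given as CPM, the usual counts scaled to library size, here with TMM factors, and a gene was called when the Benjamini-Hochberg adjusted p of edgeR's quasi-likelihood test over 15530 genes was under 0.05. One library stood apart: in wildtype basal replicate 1 the mean GC content of the counted transcripts was 52.48%, against 49.1 to 50.1% in the other 17. Of the 3 wildtype basal libraries it had the highest CCN1 and CCN2 and the lowest LATS1, YAP1 and WWTR1, so results that rest on it are also given without it. The part of GC content in these results was not tested beyond the fit with GC offsets. The targeted gene GNAS had a mean of 66.0 CPM in basal Gαs KO cells against 1317 in wildtype cells, and ARRB2 had 20.8 CPM in the β-arrestin1/2 KO line against 98.8. ARRB1 RNA was not called between β-arrestin1/2 KO and wildtype cells (41.0 against 49.5 CPM, adjusted p = 0.14, edgeR). All 5 HEK293 markers examined were found, VIM at 618 to 1509 CPM and NEFM, the lowest, at 0.757 to 2.47 CPM. The summed level of 8 fibroblast markers was 34.9 to 55.4 CPM in every group, with COL1A1 the highest, and COL3A1 at 15.9 CPM in basal Gαs KO cells, while COL1A2, DCN and POSTN each stayed at or below 0.196 CPM. Those of 3 endothelial, 3 blood and 2 keratinocyte markers reached 8.76, 18.3 and 0.932 CPM. CD3E was at 0 in all 18 libraries, and PTPRC and KRT14 stayed at or below 0.356 CPM. CD68 carried most of the blood sum, at 9.895 to 18.3 CPM in wildtype cells and 3.09 to 6.08 CPM in the KO lines. VWF carried most of the endothelial sum, at up to 7.235 CPM. At basal CD68 was called lower in the β-arrestin1/2 KO and Gαs KO lines, at log2 differences of -1.70 and -1.31. VWF was called lower in the β-arrestin1/2 KO line, at -1.22.

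CCN1 (ENSG00000142871, chromosome 1 from 85580761 to 85583962 of GRCh38, plus strand) encodes a secreted protein that binds integrins and is induced early after many stimuli. In wildtype cells its level in replicates 1, 2 and 3 was 48.8, 27.6 and 31.0 CPM at basal and 85.95, 85.4 and 79.5 CPM after isoproterenol. Every isoproterenol library lay above every basal library. The log2 change was 1.22 ± 0.15 (standard error, n = 3 against 3), and 1.51 ± 0.07 without basal replicate 1. In the β-arrestin1/2 KO line CCN1 went from 30.2, 29.7 and 30.65 CPM to 82.7, 83.3 and 82.7 CPM, a log2 change of 1.46 ± 0.15. The isoproterenol level was thus alike in these 2 lines, 83.6 and 82.9 CPM on average. In Gαs KO cells CCN1 was 42.4, 47.7 and 40.9 CPM at basal and 61.0, 55.8 and 56.6 CPM after isoproterenol, a log2 change of 0.40 ± 0.15. The groups did not overlap there either, but the change was smaller than in the other lines.

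CCN2 (ENSG00000118523, chromosome 6 from 131948176 to 131951373, minus strand) encodes connective tissue growth factor, a secreted protein of the same family known for its part in fibrosis. In wildtype cells it was at 27.5, 16.8 and 18.3 CPM at basal and at 66.8, 65.9 and 56.0 CPM after isoproterenol, a 3.02-fold ratio of the means. The log2 change was 1.59 ± 0.15, and 1.84 ± 0.11 without basal replicate 1. In the β-arrestin1/2 KO line CCN2 went from 11.2, 10.8 and 11.98 CPM to 35.3, 31.98 and 27.8 CPM, with a log2 change of 1.49 ± 0.15. In the fit of all 18 libraries the proportional change was therefore close to that of wildtype cells, from a lower start. Without wildtype basal replicate 1 it was 1.485 ± 0.096, against the 1.84 ± 0.11 of wildtype cells. The Gαs KO values were 12.5, 12.04 and 11.6 CPM at basal and 18.04, 19.0 and 17.1 CPM after isoproterenol, a log2 change of 0.58 ± 0.15. The Gαs KO isoproterenol libraries lay above their own basal libraries and, at 17.1 to 19.0 CPM, within the range of basal wildtype cells.

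**Figure D1:**
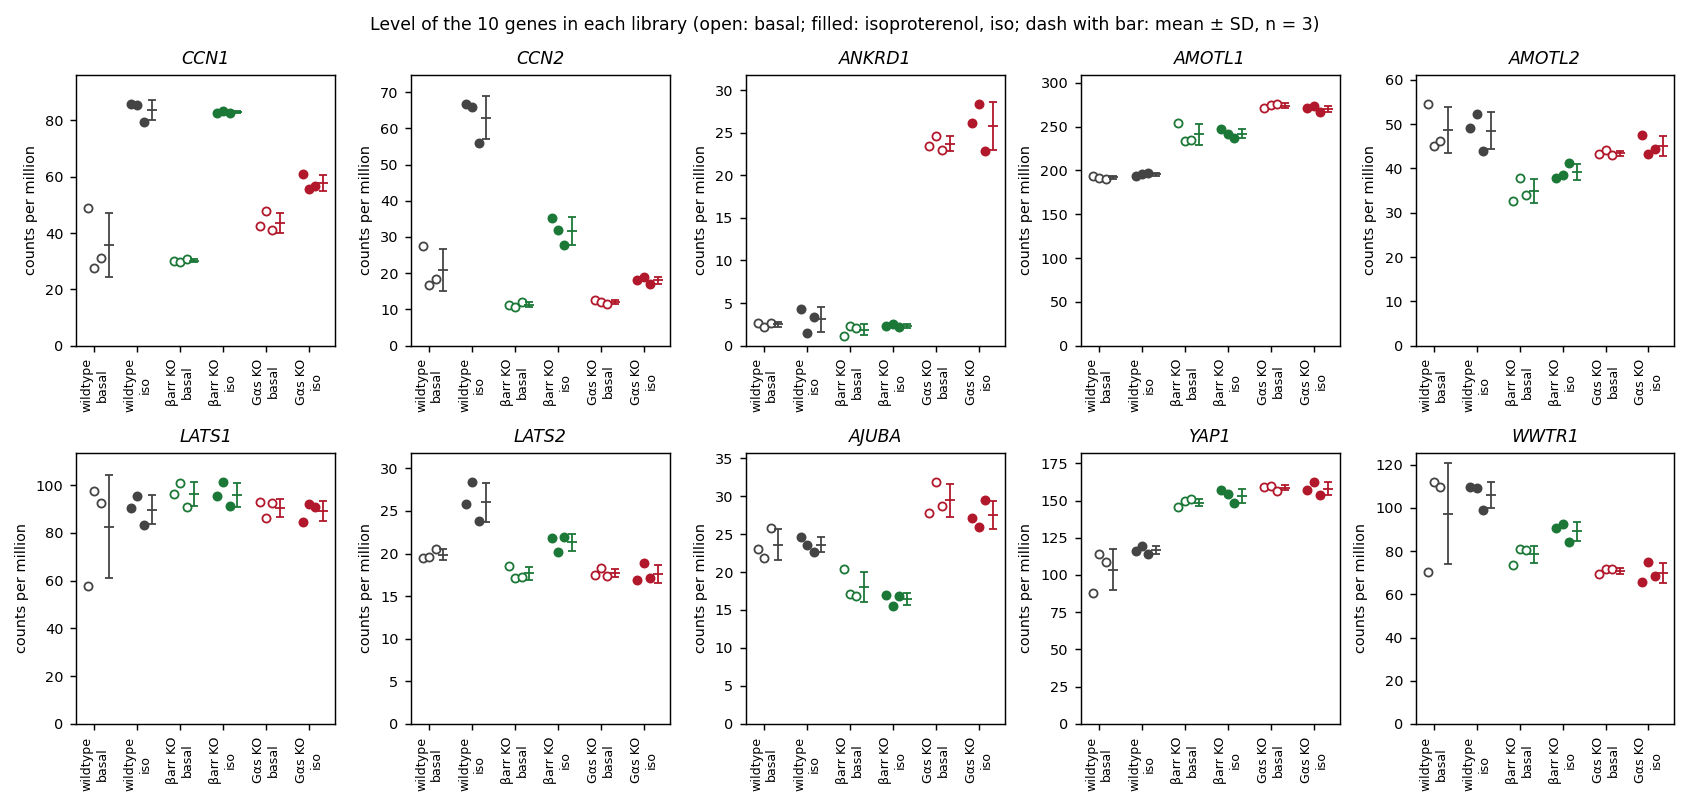
Level of each of the 10 genes in CPM (y axis, linear from 0) in the 3 libraries of each of the 6 groups (x axis; iso, isoproterenol). Open points are basal libraries, filled points isoproterenol libraries, and the dash with bar is the mean ± SD. For CCN1 and CCN2 the isoproterenol points lie above the basal ones in all 3 lines, with the smallest gap in Gαs KO cells, while ANKRD1 separates Gαs KO cells, at 22.8 to 28.4 CPM, from the other lines at 4.31 CPM or less.

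The difference in response between Gαs KO and wildtype cells was -0.82 ± 0.21 on the log2 scale for CCN1 and -1.01 ± 0.21 for CCN2. Between β-arrestin1/2 KO and wildtype cells it was 0.24 ± 0.21 for CCN1 and -0.11 ± 0.21 for CCN2. The Gαs KO values were negative for both genes, and those of the β-arrestin1/2 KO line were of opposite sign in this fit. No test is read from these values and errors, since the genes were chosen on this response. In the fit of all 18 libraries 0 of the 10 genes were called for either difference, where 0.161% of all genes were called for Gαs KO and 0.167% for the β-arrestin1/2 KO line. Nothing is read from these counts. Without wildtype basal replicate 1 the Gαs KO differences were -1.10 for CCN1 and -1.26 for CCN2, and those of the β-arrestin1/2 KO line -0.06 and -0.36. The 2 differences share the wildtype libraries.

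LATS2 (ENSG00000150457, chromosome 13 from 20973032 to 21061547, minus strand), a kinase that inhibits YAP and is itself a YAP target, was the only other member whose groups did not overlap in both responding lines. It went from 19.5, 19.6 and 20.6 CPM to 25.8, 28.4 and 23.8 CPM in wildtype cells, with a log2 change of 0.39 ± 0.09. In the β-arrestin1/2 KO line it went from 18.6, 17.1 and 17.3 CPM to 21.8, 20.2 and 21.95 CPM, with a log2 change of 0.27 ± 0.09. The Gαs KO groups overlapped, at 17.3 to 18.3 CPM at basal and 16.9 to 18.9 CPM after isoproterenol. The LATS2 log2 changes of the first 2 lines had the sign of those of CCN1 and CCN2, at a smaller size. Its paralog LATS1 was at 83.3 to 95.45 CPM after isoproterenol in wildtype cells against 57.8, 97.7 and 92.6 CPM at basal, and its log2 changes were 0.12 ± 0.14, -0.001 ± 0.14 and -0.02 ± 0.14 in wildtype cells, the β-arrestin1/2 KO line and the Gαs KO line.

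ANKRD1, a nuclear ankyrin-repeat protein and a standard YAP target, did not follow the CCN pair. In wildtype cells it was at 2.61, 2.21 and 2.69 CPM at basal and 4.31, 1.53 and 3.38 CPM after isoproterenol, and in the β-arrestin1/2 KO line at 1.15, 2.36 and 2.10 CPM and then 2.26, 2.54 and 2.17 CPM. The groups overlapped in both lines, with log2 changes of 0.29 ± 0.29 and 0.30 ± 0.29. It was high in Gαs KO cells, at 23.4, 24.7 and 23.0 CPM at basal and 26.2, 28.4 and 22.8 CPM after isoproterenol. The log2 change there was 0.12 ± 0.24. These intervals are wide in the lines with low levels, so a change of the size seen in LATS2 was not detectable for ANKRD1 at this depth.

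The sequences before the starts of 3 of these genes are shown because they differ in the letters GGAATG, the core to which TEAD factors bind. Each is the 250 bases before a RefSeq start in GRCh38.p14, 5′ to 3′ on the strand of the gene. In the windows of CCN2 (chr6:131951373-131951622) and ANKRD1 (chr10:90921088-90921337) capitals mark GGAATG. In that of LATS2 (chr13:21061587-21061836) capitals mark TGACG, the shorter form of the cyclic AMP response element, since it holds no GGAATG. All 3 genes lie on the minus strand.
CCN2: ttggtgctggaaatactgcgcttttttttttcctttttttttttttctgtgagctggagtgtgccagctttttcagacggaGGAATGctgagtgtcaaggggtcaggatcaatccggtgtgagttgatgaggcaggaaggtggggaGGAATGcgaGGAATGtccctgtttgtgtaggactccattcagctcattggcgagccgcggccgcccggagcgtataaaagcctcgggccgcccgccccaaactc
ANKRD1: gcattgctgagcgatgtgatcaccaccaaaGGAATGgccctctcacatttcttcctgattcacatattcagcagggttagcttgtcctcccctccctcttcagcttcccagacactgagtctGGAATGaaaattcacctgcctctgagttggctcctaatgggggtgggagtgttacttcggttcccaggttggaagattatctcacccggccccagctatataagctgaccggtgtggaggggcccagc
LATS2: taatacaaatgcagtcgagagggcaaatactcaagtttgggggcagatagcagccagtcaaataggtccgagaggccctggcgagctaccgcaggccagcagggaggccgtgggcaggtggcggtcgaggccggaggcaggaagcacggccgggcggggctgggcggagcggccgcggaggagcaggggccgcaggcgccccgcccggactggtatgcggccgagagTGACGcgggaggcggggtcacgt

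CCN2 held 3 copies of GGAATG, at 169 to 164, 104 to 99 and 95 to 90 bases before its start, and ANKRD1 held 2, at 220 to 215 and 128 to 123 bases. The TGACG of LATS2 stood 23 to 19 bases before its start. Windows were at hand for 9 of the 10 genes, all but CCN1, with 13 windows in all, and were searched on both strands. AJUBA, AMOTL2 and YAP1 also held GGAATG, AJUBA and AMOTL2 in only 1 of their windows, so 5 genes did. Of all 35116 windows, 11.9% hold it. This share and those that follow are of windows and not of genes. The full cyclic AMP response element TGACGTCA stood in the windows of 0 members and in 1.65% of all windows. Its shorter form TGACG, which the full element contains, stood in those of AMOTL1, LATS2 and WWTR1 and in 21.2% of all. The letters TGANTCA, a loose form of the AP-1 site, stood in those of ANKRD1 and LATS1 and in 6.57% of all. They read TGATTCA in ANKRD1 and TGAATCA in LATS1, without the C or G usual in the middle. A CArG box stood in those of 0 members and in 1.16% of all. Letters such as these do not mark a bound site, and CCN2 and ANKRD1, both with GGAATG, had different log2 changes in wildtype cells, 1.59 and 0.29.

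The angiomotin-like genes, AJUBA and the coactivators stayed near their basal levels. AMOTL1 changed by 0.02 ± 0.05, 0.006 ± 0.05 and -0.02 ± 0.05 on the log2 scale in wildtype cells, the β-arrestin1/2 KO line and the Gαs KO line. AMOTL2, the angiomotin family member that YAP itself raises, changed by -0.005 ± 0.09, 0.17 ± 0.09 and 0.05 ± 0.09. AJUBA changed by -0.001 ± 0.10, -0.14 ± 0.10 and -0.10 ± 0.10. These 3 genes had overlapping groups in every line. YAP1 was at 116.4, 119.4 and 114.4 CPM after isoproterenol in wildtype cells against 87.8, 114.3 and 108.5 CPM at basal, and its lowest isoproterenol library lay just above its highest basal one. Its log2 change there was 0.17 ± 0.08, and 0.07 ± 0.04 without basal replicate 1. WWTR1 was at 90.75, 92.5 and 84.1 CPM after isoproterenol in the β-arrestin1/2 KO line against 73.7, 80.9 and 80.7 CPM at basal, without overlap and with a log2 change of 0.18 ± 0.13. The isoproterenol and basal libraries of both coactivators overlapped in Gαs KO cells.

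Over the 10 genes, CCN1 and CCN2 were called in wildtype cells and the β-arrestin1/2 KO line, and 0 were called in Gαs KO cells. Of all genes, 0.464%, 1.13% and 0.0% were called in these 3 lines. Nothing is read from these member counts, since the genes were chosen on this response. Groups did not overlap, with isoproterenol above basal, for 4, 4 and 2 of the 10 genes, where the share of all genes was 4.85%, 15.4% and 4.9%. The 8 genes other than CCN1 and CCN2 had log2 changes of -0.005 to 0.39 in wildtype cells, -0.14 to 0.30 in the β-arrestin1/2 KO line and -0.10 to 0.12 in Gαs KO cells. The counts of members called depended on the fit, with 0 in wildtype cells when only the 6 wildtype libraries entered it. LATS2 was called as well in wildtype cells with DESeq2's Wald test and with GC offsets, where 187 and 227 genes in all were called. Without wildtype basal replicate 1, LATS2 and WWTR1 were called as well in the β-arrestin1/2 KO line, where 1849 genes in all were called.

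**Figure D2:**
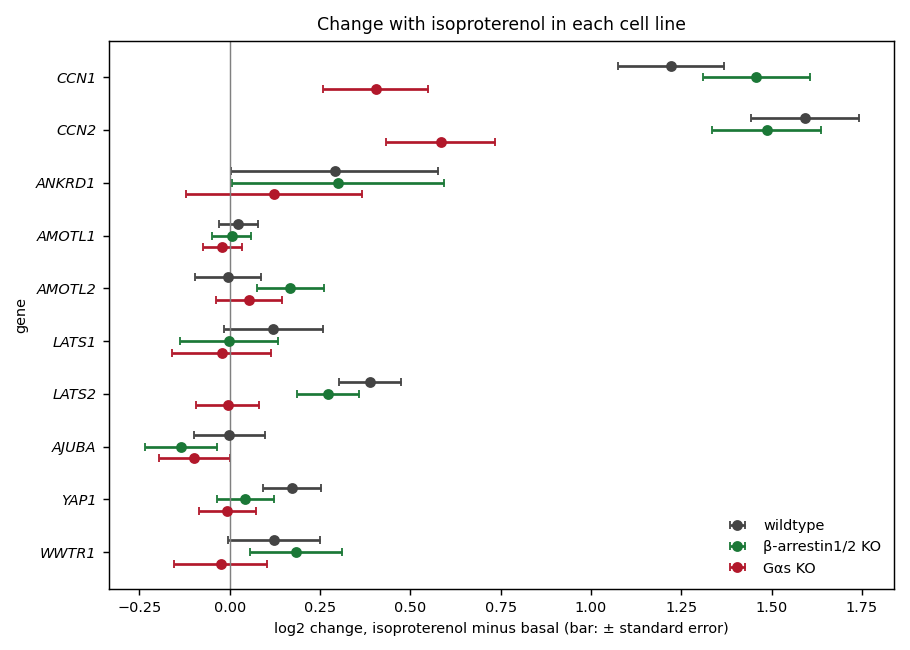
Log2 change with isoproterenol (x axis, isoproterenol minus basal; bars are ± the standard error) of the 10 genes (y axis) in wildtype cells, the β-arrestin1/2 KO line and the Gαs KO line, 3 libraries a group. CCN1 and CCN2 stand at 1.22 to 1.59 in wildtype cells and the β-arrestin1/2 KO line and at 0.40 and 0.58 in Gαs KO cells, and the other 8 genes at 0.39 or less.

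The wider YAP programme was followed in genes outside the 10. A list of 17 further genes known as YAP/TAZ targets held, among others, AXL, F3, IGFBP3, MYOF and CRIM1, and all 17 passed the low-count filter. In wildtype cells 0 of 17 were called, with a median log2 change of 0.032 beside -0.0021 over all genes and a range from -0.54 to 0.70. Of the 17, 1 rose in the β-arrestin1/2 KO line, with a median of -0.034. Of the 17, 0 were called in Gαs KO cells, with a median of 0.016. The medians of the list lay close to those of all genes. In each line 2 of the 17 had isoproterenol libraries above all basal libraries, where 4.85%, 15.4% and 4.9% of all genes did, and in the β-arrestin1/2 KO line 2 had them below.

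The target that rose in the β-arrestin1/2 KO line was IGFBP3, a secreted binding protein for insulin-like growth factors. It went from 24.3, 25.6 and 26.3 CPM to 44.2, 39.5 and 42.35 CPM, with a log2 change of 0.72 ± 0.13 (adjusted p = 0.0079, edgeR). In wildtype cells it was at 19.6, 16.1 and 16.4 CPM at basal and 21.5, 20.5 and 21.9 CPM after isoproterenol, which was not called (log2 change 0.29 ± 0.14, adjusted p = 0.47, edgeR). The difference in response between these lines was 0.43 ± 0.19 and was not called (adjusted p = 0.84, edgeR). The call in the β-arrestin1/2 KO line was lost without replicate 1 of either of its groups.

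The Hippo core list held 21 genes: the kinases STK3, STK4, MAP4K4 and TAOK1 to TAOK3, their adaptors SAV1, MOB1A and MOB1B, the upstream proteins NF2, WWC1, WWC2 and FRMD6, AMOT, the AJUBA relatives LIMD1 and WTIP, the TEAD cofactor VGLL4, and TEAD1 to TEAD4. With isoproterenol 0 of 21 were called in each of the 3 lines, with medians of 0.030, 0.073 and -0.036 in wildtype cells, the β-arrestin1/2 KO line and the Gαs KO line. For the β-arrestin1/2 KO line this depended on wildtype basal replicate 1, which is not itself one of the libraries compared there but enters the shared estimate of the spread. Without it, edgeR called 5 of 21 in that line, where 1849 genes in all were called: TAOK2 at -0.34, MOB1A at 0.21, STK3 at 0.37, MOB1B at 0.24 and FRMD6 at 0.17. TAOK2 (-0.55) and TEAD1 (0.26) were then also called for the difference from the wildtype response. Of 12 SRF/MRTF targets, genes of a cytoskeletal programme to which CCN1 and CCN2 are also counted, 0 were called in each line, with medians of -0.14, -0.028 and -0.021, and without that library FLNA (-0.19) and MYH9 (-0.21) were called in the β-arrestin1/2 KO line. Of the other CCN genes, CCN3, whose protein often opposes CCN2, passed the low-count filter and changed by 0.05 ± 0.17, 0.15 ± 0.16 and 0.06 ± 0.16. CCN4, CCN5 and CCN6 did not pass the filter and reached at most 0.493 CPM.

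The stimulus itself was visible in CREB targets. Of 8 such genes, 6 rose in wildtype cells, 7 in the β-arrestin1/2 KO line and 0 in Gαs KO cells, with median log2 changes of 2.39, 3.46 and 0.067. The shares of all genes called in these lines were 0.464%, 1.13% and 0.0%. The list was chosen as a positive control, with earlier results of these data known, so its counts and p-values are not independent of those results. NR4A1, an immediate early nuclear receptor, went from 203, 115.9 and 155.4 CPM to 562, 539 and 588.5 CPM in wildtype cells (adjusted p = 2.7e-06, edgeR). It was at 16.89 to 17.94 CPM in basal Gαs KO cells and 17.8 to 21.2 CPM after isoproterenol. The response was smaller in Gαs KO than in wildtype cells for 6 of the 8 CREB targets and larger in the β-arrestin1/2 KO line for 4 of them. Of all genes, 0.161% and 0.167% were called for these differences. Without wildtype basal replicate 1, 7 of the 8 rose in wildtype cells and 8 in the β-arrestin1/2 KO line, where 176 and 1849 genes in all were called. The response of that line was then larger than in wildtype cells for 5 of them, where 1301 genes in all were called. In Gαs KO cells edgeR called 0 of all 15530 genes, 164 had an unadjusted p under 0.05, and DESeq2's Wald test called 9. In that line the CCN pair had log2 changes of 0.40 and 0.58, while the 8 CREB targets ranged from -0.51 to 0.50.

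**Figure D3:**
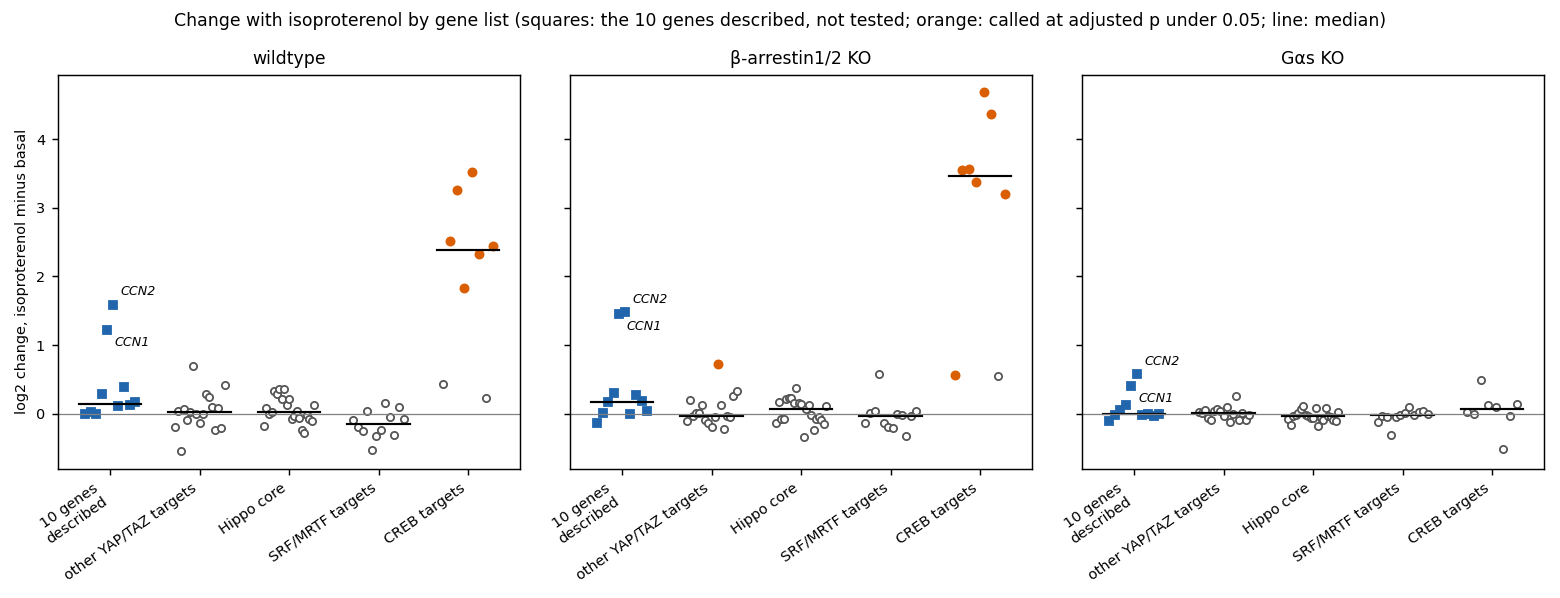
Log2 change with isoproterenol (y axis) of every gene tested in 5 lists (x axis), with one panel for each cell line. Squares are the 10 genes described, which carry no test, orange points are list genes called at an adjusted p under 0.05 by edgeR, open points are list genes that were not called, and the line is the median of each list. Most YAP/TAZ targets, Hippo core genes and SRF/MRTF targets lie around 0 in all panels, and the CREB targets lie far above 0 in wildtype cells and the β-arrestin1/2 KO line, with medians of 2.39 and 3.46.

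At basal the members differed between the lines, in different directions from gene to gene. CCN2 was lower in both KO lines and YAP1 and AMOTL1 were higher in both. ANKRD1 was 9.46-fold higher in Gαs KO cells. In bulk RNA, fewer cells that express a gene and less RNA per cell cannot be told apart. Many genes differed at basal: 33.5% of all genes were called between the β-arrestin1/2 KO line and wildtype and 31.3% between the Gαs KO line and wildtype, so the 5 and 6 of 10 members called must be read against those shares. With only the libraries compared in the fit, CCN2 remained called in the β-arrestin1/2 KO line and ANKRD1, AMOTL1 and YAP1 in the Gαs KO line. Both comparisons share the 3 wildtype basal libraries.

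The 2 CCN genes parted at basal. CCN2, at 16.8 to 27.5 CPM in wildtype cells, was at 10.8 to 11.98 CPM in the β-arrestin1/2 KO line and 11.6 to 12.5 CPM in Gαs KO cells, with no overlap. Its log2 differences from wildtype were -0.88 ± 0.15 (adjusted p = 0.00032, edgeR) and -0.79 ± 0.15 (adjusted p = 0.00079, edgeR). The 27.5 CPM was that of wildtype basal replicate 1, against 16.8 and 18.3 CPM in the other wildtype basal libraries. The size of both differences therefore rests partly on that library, and without it CCN2 was still called in both lines. CCN1 overlapped with wildtype cells in both lines and was not called, at -0.25 ± 0.15 (adjusted p = 0.21, edgeR) and 0.29 ± 0.15 (adjusted p = 0.15, edgeR). The CCN1 values depended on wildtype basal replicate 1: without it the log2 difference was 0.05 in the β-arrestin1/2 KO line, and in Gαs KO cells CCN1 was called, at 0.57. CCN1 was also called in Gαs KO cells with GC offsets, and in the β-arrestin1/2 KO line without wildtype basal replicate 2.

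Per kilobase of transcript, CCN1 exceeded CCN2 in all 18 libraries. The ratio of CCN1 to CCN2 was 1.68 to 1.82 in basal wildtype cells and 1.31 to 1.45 after isoproterenol. In the β-arrestin1/2 KO line it was 2.62 to 2.81 at basal and 2.39 to 3.05 after isoproterenol, and in Gαs KO cells 3.46 to 4.05 and 3.01 to 3.46. Both KO lines thus had more CCN1 for each CCN2 than wildtype cells, with or without the agonist, and wildtype basal replicate 1 was not apart from the other 2 wildtype libraries in this ratio.

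**Figure D4:**
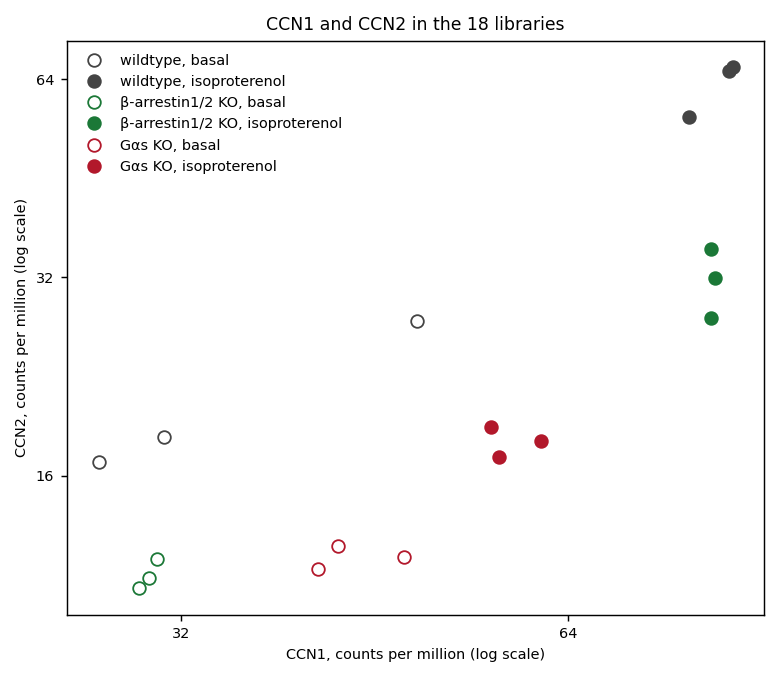
CCN1 (x axis) against CCN2 (y axis), both in CPM on log scales, in the 18 libraries. Open points are basal and filled points isoproterenol libraries. The wildtype and β-arrestin1/2 KO isoproterenol libraries share CCN1 levels of 79.5 to 85.95 CPM but differ in CCN2, at 56.0 to 66.8 against 27.8 to 35.3 CPM, and the Gαs KO isoproterenol libraries lie at 55.8 to 61.0 CPM of CCN1 and 17.1 to 19.0 CPM of CCN2.

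ANKRD1 (ENSG00000148677, chromosome 10 from 90912096 to 90921276, minus strand) had the largest basal difference of the 10 genes. Its mean was 23.7 CPM in Gαs KO cells, 2.50 CPM in wildtype cells and 1.87 CPM in the β-arrestin1/2 KO line. The log2 difference from wildtype was 3.24 ± 0.28 in Gαs KO cells (adjusted p = 3.1e-07, edgeR) and -0.41 ± 0.29 in the β-arrestin1/2 KO line (adjusted p = 0.31, edgeR). ANKRD1 and CCN2, both standard YAP targets, therefore differed from wildtype in opposite directions in Gαs KO cells. Of the 8 fibroblast markers 5 could be tested, and in the same comparison COL3A1 (15.9 against 3.51 CPM) and LUM (1.71 against 0.388 CPM) were higher and COL1A1 (20.65 against 34.8 CPM) was lower. The summed level of the 8 was 39.7 to 44.8 CPM in basal Gαs KO cells and 34.9 to 55.4 CPM in basal wildtype cells, and its part in the ANKRD1 level was not tested.

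Among the inhibitors, AMOTL1 (ENSG00000166025, chromosome 11 from 94706431 to 94876753, plus strand) was at 190.5 to 194.1 CPM in wildtype, 233.9 to 254 CPM in β-arrestin1/2 KO and 272 to 276 CPM in Gαs KO cells at basal. It was higher by 0.33 ± 0.05 (adjusted p = 0.00022, edgeR) and 0.51 ± 0.05 (adjusted p = 2.9e-06, edgeR). AMOTL2 (ENSG00000114019, chromosome 3 from 134355874 to 134375479, minus strand) was lower in the β-arrestin1/2 KO line, by -0.48 ± 0.09 (adjusted p = 0.00083, edgeR), and was not called in Gαs KO cells, at -0.16 ± 0.09. The paralogs thus differed in direction in the β-arrestin1/2 KO line. LATS1 (ENSG00000131023, chromosome 6 from 149658153 to 149718256, minus strand) and LATS2 were called in neither line, with log2 differences of 0.22 ± 0.14 and 0.13 ± 0.14 for LATS1 and of -0.17 ± 0.09 in both lines for LATS2.

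AJUBA (ENSG00000129474, chromosome 14 from 22971174 to 22982642, minus strand) was at 23.1, 21.9 and 25.8 CPM in wildtype cells. It was lower in the β-arrestin1/2 KO line, at 20.3, 17.1 and 16.8 CPM (log2 difference -0.39 ± 0.10, adjusted p = 0.0067, edgeR), and higher in Gαs KO cells, at 27.75, 31.9 and 28.7 CPM (0.32 ± 0.10, adjusted p = 0.021, edgeR). The 3 lines did not overlap. The Gαs KO call was lost without replicate 2 of either group.

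Of the coactivators, YAP1 was higher in both KO lines and WWTR1 was lower in Gαs KO cells. YAP1 (ENSG00000137693, chromosome 11 from 102110461 to 102233423, plus strand) was at 87.8 to 114.3 CPM in wildtype cells, 145.7 to 150.8 CPM in the β-arrestin1/2 KO line and 156.5 to 160.0 CPM in Gαs KO cells at basal. The log2 differences were 0.52 ± 0.08 (adjusted p = 0.00011, edgeR) and 0.62 ± 0.08 (adjusted p = 2.4e-05, edgeR). The 87.8 CPM was that of wildtype basal replicate 1, against 114.3 and 108.5 CPM in the other wildtype basal libraries. The size of both differences therefore rests partly on that library, and without it YAP1 was still called in both lines. WWTR1 (ENSG00000018408, chromosome 3 from 149517235 to 149736714, minus strand) was at 70.3, 112.0 and 109.5 CPM in wildtype cells and lower in Gαs KO cells, at 69.4, 71.7 and 71.7 CPM (log2 difference -0.46 ± 0.13, adjusted p = 0.013, edgeR). It was at 73.7 to 80.9 CPM in the β-arrestin1/2 KO line, which was not called (-0.31 ± 0.13, adjusted p = 0.075, edgeR). The low wildtype value of WWTR1 was that of basal replicate 1, without which both differences were called, at -0.65 and -0.49. Without replicate 2 or 3 of that group, or with GC offsets, the Gαs KO call was lost.

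**Figure D5:**
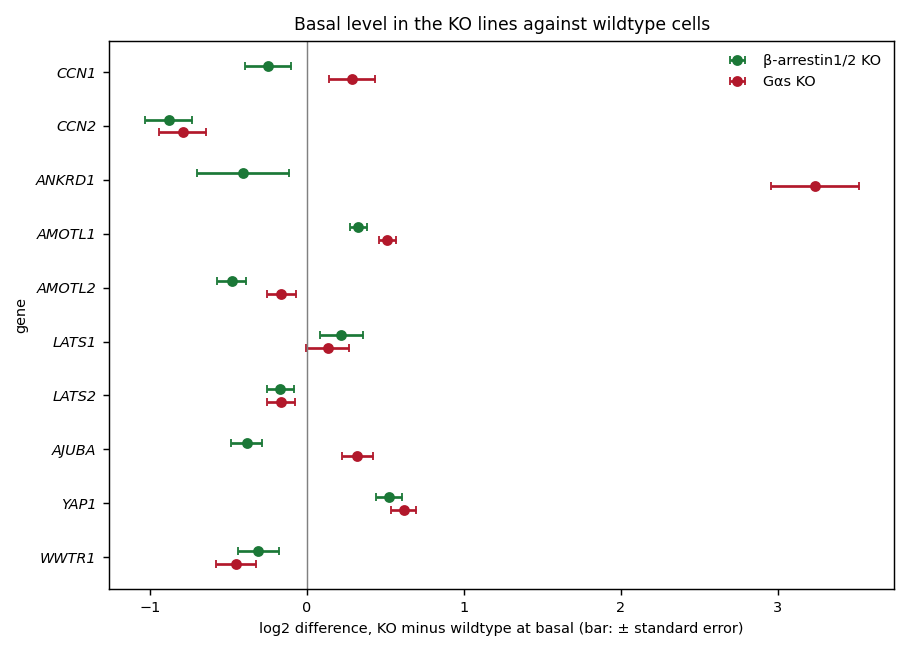
Log2 difference in basal level from wildtype cells (x axis, KO minus wildtype; bars are ± the standard error) of the 10 genes (y axis) in the β-arrestin1/2 KO line and the Gαs KO line, 3 libraries a group. CCN2 lies at -0.88 and -0.79, YAP1 at 0.52 and 0.62, and ANKRD1 at 3.24 in Gαs KO cells.

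Other YAP/TAZ targets were also split at basal. In the β-arrestin1/2 KO line 5 of 17 were higher and 2 lower than in wildtype cells, where 15.7% of all genes were higher and 17.9% lower, with a median log2 difference of 0.17 beside 0.023 over all genes. F3, the tissue factor of blood clotting, was the largest of the higher ones at 1.06 ± 0.19 (adjusted p = 0.0005, edgeR), with NT5E at 0.86, IGFBP3 at 0.55, MYOF at 0.51 and CRIM1 at 0.28, while ASAP1 was at -0.81 and FJX1 at -0.53. Without Gαs 4 were higher and 2 lower, where 14.2% of all genes were higher and 17.1% lower, with a median of 0.033. MYOF, a membrane repair protein, was at 1.33 ± 0.14 (adjusted p = 2.4e-06, edgeR), with CCDC80 at 0.99, RBMS3 at 0.86 and ARHGEF17 at 0.42, while IGFBP3 was at -1.73 ± 0.15 (adjusted p = 2.2e-07, edgeR) and ASAP1 at -0.74. As with the members, genes that YAP is known to raise lay on both sides of wildtype cells in each KO line, and IGFBP3 lay on opposite sides in the 2 lines. NT5E had 15 to 37 counts in the wildtype basal libraries and lost its call in 16 of 26 alternatives. Without wildtype basal replicate 1, 10 of the 17 were called in the β-arrestin1/2 KO line, 7 higher and 3 lower. In Gαs KO cells 8 were then called, 6 higher and 2 lower. Fits without 1 library called up to 7378 and 7241 genes in all for these comparisons.

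In the Hippo core, 8 of 21 genes were called in the β-arrestin1/2 KO line, 5 higher and 3 lower, and 7 in Gαs KO cells, 4 higher and 3 lower, where 33.5% and 31.3% of all genes were called. TEAD1 was higher in both, at 0.37 ± 0.12 (adjusted p = 0.026, edgeR) and 0.56 ± 0.12 (adjusted p = 0.0019, edgeR), and TEAD4 was lower in both, at -0.80 ± 0.17 (adjusted p = 0.0018, edgeR) and -0.54 ± 0.17 (adjusted p = 0.023, edgeR). Without wildtype basal replicate 1 these values were 0.19 and 0.38 for TEAD1 and -0.45 and -0.20 for TEAD4. That fit called 13 of the 21 in the β-arrestin1/2 KO line, 7 higher and 6 lower. In Gαs KO cells it called 12, 5 higher and 7 lower. Fits without 1 library called up to 7378 and 7241 genes in all for these comparisons. The TEAD1 call in the β-arrestin1/2 KO line was lost without any 1 of the 3 basal libraries of that line, and the TEAD4 call in Gαs KO cells without basal replicate 1 or 3 of that line. FRMD6 was at 0.56 and 0.34, MAP4K4 at 0.20 and 0.24 and WWC1, a scaffold known as KIBRA, at -0.29 and -0.62, in the β-arrestin1/2 KO line and the Gαs KO line. AMOT, the founding angiomotin, was higher in the β-arrestin1/2 KO line at 0.29 and lower in Gαs KO cells at -0.32. SAV1 at 0.43 and NF2 at -0.96 were called in the β-arrestin1/2 KO line, and TEAD2 at 0.33 in Gαs KO cells. The NF2 call was lost in 15 alternatives, the WWC1 call in the β-arrestin1/2 KO line in 12 and the TEAD2 call in 5.

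CCN3 was higher at basal in both KO lines, at 6.63 to 8.06 CPM in the β-arrestin1/2 KO line and 5.47 to 7.02 CPM in Gαs KO cells against 2.56 to 2.69 CPM in wildtype cells. The log2 differences were 1.47 ± 0.17 (adjusted p = 5.8e-06, edgeR) and 1.23 ± 0.17 (adjusted p = 3.6e-05, edgeR), so CCN3 and CCN2 differed from wildtype in opposite directions in both lines. Of the 12 SRF/MRTF targets, 4 were higher and 4 lower in the β-arrestin1/2 KO line and 3 were higher and 3 lower in Gαs KO cells, again beside 33.5% and 31.3% of all genes called. ACTA2, smooth muscle actin, was at 1.197 and CNN1, calponin, at -1.30 in the β-arrestin1/2 KO line, with FLNA at 0.65, SRF at -0.51, TPM1 at 0.47, ACTG1 at -0.36 and VCL at -0.20. Without Gαs FLNA was at -0.75, ACTG1 at -0.53, TPM1 at 0.47, MYH9 at 0.42 and ACTB at -0.30. Without wildtype basal replicate 1, FLNA was at 0.98, SRF at -0.27, ACTG1 at -0.20 and CNN1 at -0.91 in the β-arrestin1/2 KO line. In Gαs KO cells FLNA was then at -0.43, ACTG1 at -0.38, MYH9 at 0.63 and ACTB at -0.16. That fit called 9 of the 12 in the β-arrestin1/2 KO line, 5 higher and 4 lower, and 7 in Gαs KO cells, 4 higher and 3 lower. Fits without 1 library called up to 7378 and 7241 genes in all for these comparisons. MYL9 had 6, 0 and 0 counts in basal wildtype cells, 90, 65 and 60 in the β-arrestin1/2 KO line and 36, 51 and 56 in Gαs KO cells.

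CREB targets were also lower at basal in the KO lines, 5 of 8 in the β-arrestin1/2 KO line, with DUSP1 higher, and 7 of 8 in Gαs KO cells, where 17.9% and 17.1% of all genes were lower. Their median log2 differences were -0.85 and -1.04. NR4A1 was at -1.79 and -3.18, NR4A3 at -1.69 and -2.13, NR4A2 at -0.59 and -1.24, CREM at -1.28 and -0.74 and PER1 at -1.11 and -0.85. FOS was lower in Gαs KO cells, at -1.94, and DUSP1 was at 0.38 and -0.33 in the 2 lines. The DUSP1 call in Gαs KO cells was lost in 7 alternatives, among them the fit without wildtype basal replicate 1.

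Levels of different genes can be compared only per length of transcript. By CPM per kilobase, using the length of each gene weighted by the counts of its transcripts, WWTR1 was first of the 10 in all 6 groups, at 46.5 ± 11.2 (SD, n = 3) in basal wildtype cells, followed by AMOTL1 at 21.6 ± 0.21 and YAP1 at 21.2 ± 2.86, which overlapped. CCN1 came next at 15.7 ± 4.97, overlapping YAP1 and AMOTL2, and CCN2 stood lower at 8.91 ± 2.47. LATS2, at 3.62 ± 0.11, and ANKRD1, at 1.27 ± 0.13, closed the order. After isoproterenol CCN1 moved to rank 2 in wildtype cells, at 36.5 ± 1.57, and CCN2 to rank 3, at 26.9 ± 2.56, where its range met that of YAP1. CCN1 was at rank 2 in the β-arrestin1/2 KO line too, at 36.2 ± 0.15, but CCN2 at rank 5, at 13.6 ± 1.62, overlapping LATS1. In Gαs KO cells CCN1 stayed at rank 4, at 19.1 ± 1.57 at basal and 25.3 ± 1.22 after isoproterenol, and CCN2 went from rank 9 to rank 8, at 5.15 ± 0.21 and 7.71 ± 0.40. The first place of WWTR1 was lost with the length of its longest annotated transcript, 5030 bases, against a weighted length of 2090 bases. That transcript held 0.3% of the WWTR1 counts, and 1 of 2103 bases held 96.1%. With the longest transcript as length WWTR1 was first in 0 of the 6 groups and at rank 4 in basal Gαs KO cells.

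The gene sums of the CCN pair did not depend on splice forms. CCN2 and ANKRD1 each had a single transcript with counts, and 1 transcript carried 99.9% of CCN1, 99.6% of LATS2, 96.1% of WWTR1, 94.2% of AJUBA and 91.0% of LATS1. The counts of AMOTL1 were split between 2 transcripts at 65.2% and 34.5%, and those of AMOTL2 went mostly to 2 of 13, at 61.9% and 24.6%. YAP1 had counts in 11 transcripts, and the leading one held 44.9% on average and 17.92 to 55.3% over the libraries. Shares of transcripts that share most of their sequence are estimates, so for these 3 genes the sum is better determined than its parts.

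Genes most like CCN2 over the 18 libraries, by Pearson's r of log2 CPM, were YRDC (0.918), LATS2 (0.912), VEGFA (0.877), MAT2A (0.869) and GEM (0.866). Those most like CCN1 were OTUD1 (0.926), CITED2 (0.919), EGR3 (0.884), FOSL2 (0.873) and EGR2 (0.865). The lists share no gene. CCN1 was at rank 24 in likeness to CCN2, with r = 0.814, and of the other members WWTR1 had 0.619, AMOTL2 0.476, LATS1 -0.145, AJUBA -0.156, ANKRD1 -0.342, YAP1 -0.472 and AMOTL1 -0.595. These values describe 18 libraries that share 6 group means, and they are given without a test. VEGFA, for example, had 66.5 to 78.6 CPM in basal wildtype cells, 86.8 to 91.3 CPM after isoproterenol and 42.7 to 49.2 CPM in the 3 isoproterenol libraries of Gαs KO cells. CITED2 had 78.2 to 91.8, 130.6 to 145.5 and 118.8 to 123.6 CPM in the same groups. In basal Gαs KO cells VEGFA was at 43.1 to 44.75 CPM and CITED2 at 114.6 to 126.7 CPM. The basal and isoproterenol libraries of Gαs KO cells thus overlapped for both genes.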

How the data were processed

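Poly(A) RNA of 3 HEK293 lines, with and without isoproterenol, was measured by RNA-Seq in 3 biological replicates a group. The authors deposited expected counts per transcript from Salmon 1.7.0 for 184844 transcripts in 18 libraries, not normalized for depth or length. The submitters' processing notes name GRCh38. The transcript index and the strand setting are not given in the sources used here. The authors then used DESeq2.

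Transcripts were joined by Ensembl identifier to GENCODE release 29, which matched 161838 of them and 92.9 to 93.8% of the counts of a library. Symbols newer than that release were matched through older names. Counts were summed per gene, rounded, filtered with filterByExpr by group (15530 genes left) and scaled by TMM. edgeR 4.0.16 in R 4.3.3 fitted 1 coefficient per group to all 18 libraries (glmQLFit, glmQLFTest). The 7 comparisons were the response in each line, the difference of each KO response from wildtype, and each KO line against wildtype at basal. Calls used a Benjamini-Hochberg adjusted p under 0.05 over all genes, and the standard error is the size of the log2 value divided by the square root of F. Python 3.11.15 with pandas 2.3.3, numpy 2.4.6 and matplotlib 3.10.9 made the summaries. On simulated data with 200 genes changed 3-fold in wildtype cells over 15530 genes, the fit recovered 96.0% of them and called 9 unchanged genes. The changed genes were drawn from those with higher counts, and noise was drawn gene by gene. No simulated library was shifted over many genes as wildtype basal replicate 1 was, so these rates may not hold for the wildtype comparison.

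The members and lists were chosen with earlier results of these data known. Named genes are the members, the targeted genes, list genes that were called (up to 10 a comparison), the 5 most like CCN1 and CCN2 by Pearson's r (prior count 2), and defining markers. No value of a deposited column was left out. Same-numbered libraries did not deviate together (correlations of -0.0994 to 0.0769 over 15 pairs), so samples were treated as unpaired. Alternatives were DESeq2's size factors, upper-quartile scaling, the Wald test of DESeq2 1.42.0, a filter at 1 count in any library, only the libraries compared, a replicate block, lowess offsets (span 0.3) for GC content and length, unmatched transcripts kept, each library left out, and the longest transcript as length.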

Additional observations from a re-analysis of the deposited data

Results flagged for a closer look

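The response differed from that of wildtype cells, by the test of the difference itself (edgeR), for CREB targets. That list was chosen with earlier results of these data known. In β-arrestin1/2 KO cells the difference on the log2 scale was 1.041 for DUSP1, 1.538 for NR4A1, 1.163 for NR4A2 and 2.046 for NR4A3, all larger log2 changes. NR4A1 rose there from a mean of 45.8 to 473.0 CPM, against 158.1 to 563.3 CPM in wildtype cells. Its isoproterenol level was thus lower than in wildtype cells, while DUSP1, NR4A2 and NR4A3 reached higher means. The NR4A3 call was lost in 4 alternatives, and the DUSP1 and NR4A1 calls with only the libraries compared. In Gαs KO cells it was -2.522 for DUSP1, -2.756 for FOS, -1.706 for NR4A1, -3.416 for NR4A2, -2.831 for NR4A3 and -2.302 for SIK1, all smaller responses. Gene by gene, single outlying samples were not looked for in groups of 3. Over all genes wildtype basal replicate 1 stood apart, with a chi-square per gene of 132 and 104 against replicates 2 and 3, which gave 9.04 against each other.

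Outside the gene sums, 6940 transcripts with no match in the annotation were tested with edgeR. Of these, 4 were called in wildtype cells, 3 of them higher, and 7 in β-arrestin1/2 KO cells, 3 of them higher. In the same fit 72 and 153 of all 22470 features were called for these responses.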

How the results depend on the processing

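Across 8 other settings of the fit and 18 fits that left out a library, the members' responses kept their direction wherever they were called. With DESeq2's Wald test the genes called numbered 187, 291 and 9 for the responses of wildtype cells, the β-arrestin1/2 KO line and the Gαs KO line, and 104 and 68 for the differences in response of the β-arrestin1/2 KO line and the Gαs KO line, with 2 members called for the latter. With offsets for GC content and length the counts were 227 and 377 for the first 2 responses and 123 and 56 for the differences, again with 2 members for Gαs, and LATS1 at basal in the Gαs KO line turned to -0.029. The wildtype response had 64 genes higher and 8 lower, 121 and 66 with the Wald test and 158 and 69 with GC offsets. With only the libraries compared, the counts were 13 and 1161 for the first 2 responses, 9 and 15 for the differences, and 1502 and 1587 at basal. The members called were then 0 for the wildtype response and 1 and 3 at basal, and 2 of the other YAP/TAZ targets were called at basal in the β-arrestin1/2 KO line. These fits hold fewer libraries. The cause of the other changes was not tested.

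Leaving out 1 library gave 56 to 176 genes called for the wildtype response and 113 to 1849 for the β-arrestin1/2 KO response, with 2 to 4 members and 0 to 1 other targets, and 15 to 1301 and 19 to 65 genes for the differences of the β-arrestin1/2 KO line and the Gαs KO line, with 0 to 2 members for the latter. The highest of these gene counts, the 4 members and the 2 members came without wildtype basal replicate 1. Without wildtype basal replicate 2 the wildtype response had 110 genes and the β-arrestin1/2 difference 42. Without replicate 1 of either β-arrestin1/2 KO group its response had 113 genes and 0 other targets, and without replicate 1 or 3 of either group its difference had 15 to 17. CCN1 at basal in the β-arrestin1/2 KO line ranged from -0.4 to 0.045 and LATS1 at basal in the Gαs KO line from -0.076 to 0.265, with the turned sign in each case without wildtype basal replicate 1. Same-numbered libraries share only a number. With a replicate block the genes called numbered 73, 171 and 0 for the 3 responses and 2, 2 and 0 members, and the block changed no call of a member. With the longest transcript as length, WWTR1 lost its first rank in all 6 groups. With 3 libraries a group, low genes such as ANKRD1 in wildtype cells have wide errors.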
